A study of Mus musculus with 56 samples.

Results

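The lungs of mice killed 18 and 24 hours after an intravenous injection of oleic acid (OA) were compared with the lungs of mice killed 18 and 24 hours after an injection of physiological serum. These 13 deposited samples, out of 56 in the series, comprise 14 nylon cDNA microarrays out of 60, and were chosen by treatment and time from the labels and not by any measured value. They came from 6 OA mice (3 at 18 hours, 3 at 24 hours) and 3 serum mice (2 at 18 hours, 1 at 24 hours). All animals were female C57Bl/6J mice, 7 weeks old, anesthetized with xylazine and ketamine and injected in the tail vein with 20 µl. OA mice received 1.2 µl of oleic acid per g of body weight, and serum mice received physiological serum. RNA was taken from a whole lung, so the measurements mix all the cell types of the organ. The group has limits as a model. The names of all 6 OA mice end in L1, a code that the titles do not explain, and the serum titles carry no such code. The only 24 hour control is 1 mouse. The 2 serum arrays at 18 hours share 1 sample label and were taken as 2 mice. The treatment text of the serum samples repeats that of the OA samples, so groups were taken from titles and source names.

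OA, a free fatty acid, damages the endothelium of lung capillaries when it is given by vein, and protein-rich fluid then leaks into the air spaces, which makes it a widely used model of acute lung injury without infection. The capillary wall is formed by endothelial cells held together by junction proteins such as Cldn5, F11r and Esam1. The alveolar side is lined by type II cells, which make surfactant from newly synthesized fatty acids, and by flat type I cells.

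On each membrane, 7625 spots were mouse cDNA clones with a gene name (5883 gene symbols). Another 512 spots were empty, 192 held CG03, an Arabidopsis cDNA without a mouse counterpart, and 1647 carried no gene name. Signals below are log2 of the spot signal after quantile normalization over all arrays, averaged over the arrays of a mouse, and differences are OA minus serum on this log2 scale. A clone was taken as above background when its mean over the 9 mice exceeded 9.15, the mean 95th percentile of the empty spots. This left 2189 clones (28.7%) of 1813 genes. The clones nearest to this line were Fnbp1l at 9.1525 and Csnk1d at 9.1534 just inside, and Fez2 at 9.1495 and Adh5 at 9.1492 just outside the line at 9.1504. Among lung markers, Sftpd, Slc34a2, Napsa and one Pecam1 clone were above background, while Sftpa1, Sftpb, Sftpc, Scgb1a1, Ager and Aqp5 had no clone under those names.

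Before normalization the median log2 signal was 6.75 to 8.93 on OA arrays (per mouse, median 8.55) and 7.00 to 8.36 on serum arrays (median 7.62). These ranges overlapped (exact permutation test within time, two-sided p = 0.175, adjusted over 5 measures 0.219, smallest p the 40 arrangements allow 0.025). After normalization the CG03 spots separated the groups completely. Their median was 10.63 to 11.71 in OA mice and 11.94 to 12.28 in serum mice (exact p = 0.025, the smallest possible, adjusted p = 0.0417). The empty spots did so too, with medians of 6.16 to 6.38 and 6.49 to 6.67 (exact p = 0.025, adjusted p = 0.0417). Before normalization the CG03 medians were 10.49 to 11.41 in OA mice and 11.97 to 12.69 in serum mice. Those of the empty spots overlapped then, with 4.75 to 7.23 and 5.61 to 6.64. After normalization, spots without mouse cDNA were thus dimmer in OA mice, for empty spots only relative to the other spots. The differences of clones are given beside them.

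OA and serum lungs differed in a large part of the clones. Of all 7625 clones, 3498 were called by limma at a false discovery rate of 5% (45.9%), 1918 higher (25.2%) and 1580 lower (20.7%) in OA mice, and 4076 had an unadjusted p below 0.05 (53.5%). In 3619 clones (47.5%) OA and serum mice did not overlap within either time, with OA above serum in 1949 (25.6%) and below it in 1670 (21.9%). Of the 2189 clones above background, 952 were called (43.5%), 523 higher (23.9%) and 429 lower (19.6%), and the groups did not overlap in 534 with OA above and 472 with OA below. With spots quantified over a diameter calculated for each spot, 151 of these clones were called (125 higher, 26 lower), and with arrays centred on their median the split was 283 higher and 973 lower. Centring on CG03 gave 1714 and 8. The share called was no smaller among spots that hold no mouse cDNA. Fitted in the same way over all spots of the membrane, 919 of the 2189 clones above background (42%), 247 of the 512 empty spots (48.2%) and 141 of the 192 CG03 spots (73.4%) were called. All 141 called CG03 spots were lower in OA, with a median difference of -0.97, and 190 of the 247 called empty spots were lower. Calls at 5% were therefore as frequent in spots without mouse cDNA, and sizes are given against these spots. How far this shift enters the differences of clones was not tested.

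Large positive differences were more frequent among clones than among control spots. Over all 7625 clones, without a filter, 118 (1.55%) were higher by more than 2 and 3 (0.0393%) lower by more than 2, against 2 (0.391%) and 8 (1.56%) of the 512 empty spots. The central 95% of the empty spots lay between -1.72 and 1.03. Of the clones above background, 171 (7.81%) were above this interval and 3 (0.137%) below it. The background line is drawn on a mean over 6 OA and 3 serum mice, which admits clones bright only in OA more readily than clones bright only in serum, so these counts above background are a description. No CG03 spot was higher in OA. A difference above 3 was seen in 2 of 512 empty spots, 44 of 2189 clones above background and 8 of 5436 not above it. In the clones not above background this share was smaller than in the empty spots. Among the clones above background 79, of 76 genes, were called higher by more than 2, and no clone was called lower by more than 2. The plot of cumulative shares by kind of spot shows the shift of CG03 and empty spots to the left and the right tail of the clones.

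**Figure D1:**
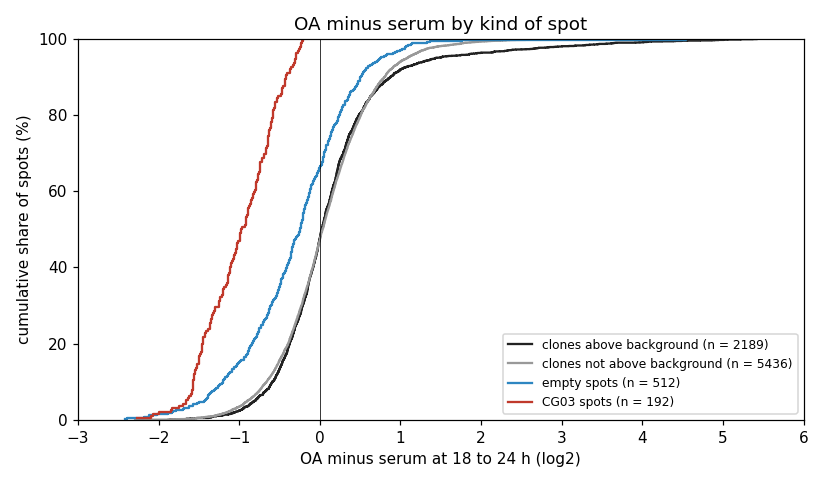
Cumulative share of spots (%) against the OA minus serum difference at 18 to 24 h (log2) for clones above background (n = 2189), clones not above background (n = 5436), empty spots (n = 512) and CG03 spots (n = 192). All CG03 spots lie below 0 and single spots of the other 3 kinds reach far to the right, up to 5.43, 5.42 and 4.54 in this order.

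Cklf, a chemokine-like factor that attracts leukocytes, was measured by a pair of clones. The dimmer clone had 12.64, 12.59 and 12.64 in OA mice at 18 hours and 12.47, 12.54 and 12.41 at 24 hours, against 7.41 and 7.05 in serum mice at 18 hours and 7.14 at 24 hours. Every OA mouse was far above every serum mouse, and no serum array was above its own empty spots. The mean was 12.55 ± 0.10 (SD, n = 6) in OA and 7.20 ± 0.19 (n = 3) in serum, a fitted difference of 5.37 ± 0.11 (SE, limma adjusted p = 7.9e-10), or, since serum was not above background, at least 9.22-fold. The brighter Cklf clone differed by 4.89 ± 0.15 (at least 15.7-fold).

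Cherp, an endoplasmic reticulum protein of calcium release and splicing, had 12.95 to 13.39 (median 13.19) in OA mice and 8.61, 8.54 and 7.06 in serum mice, a difference of 5.22 ± 0.20 (at least 14.2-fold). Dlg7 (now Dlgap5), a protein of the mitotic spindle, was higher by 5.21 and 4.71 in a pair of clones, although another Dlg7 clone, not above background, differed by only 0.05 (adjusted p = 0.82). Prei3 (now Mob4) differed by 5.01. Gtpbp8, a GTP-binding protein, differed by 4.86, and by 0.68 in a clone not above background. AY074887 (5.43), Jub (now Ajuba, 4.56), Slc24a6 (now Slc8b1, a mitochondrial sodium/calcium exchanger, 4.49) and Q3U0Y7MOUSE (4.41) were also among the 12 clones with the highest differences. All 12 stayed called when any mouse was left out, with differences between 4.25 and 5.59.

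**Figure D2:**
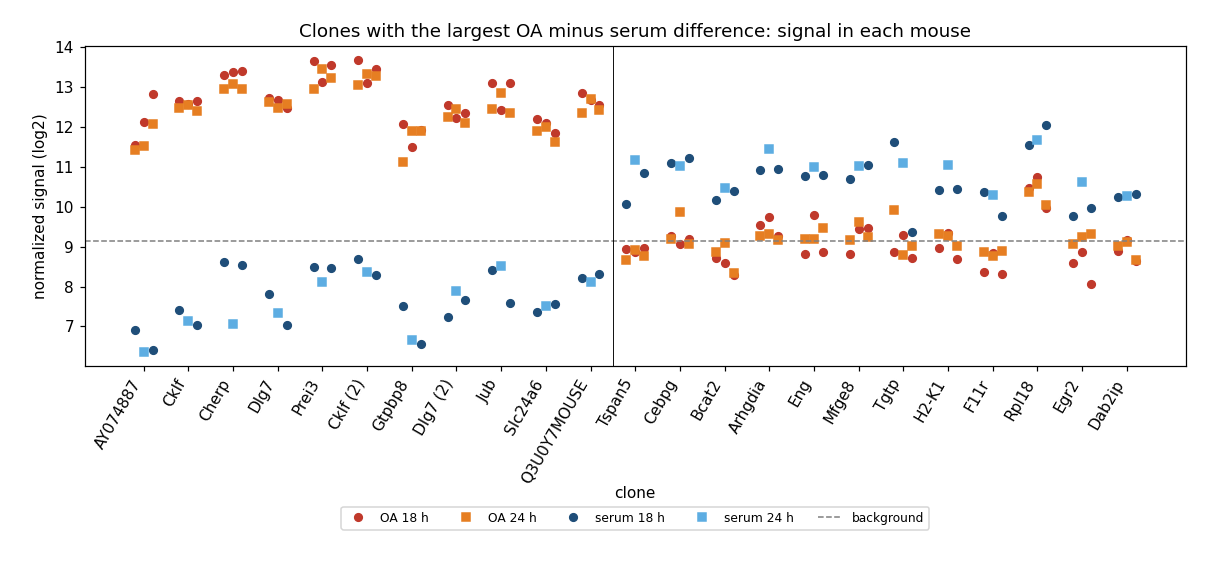
Normalized signal (log2) in each of the 9 mice for 11 of the 12 clones with the highest (left of the line) and the 12 with the lowest OA minus serum difference; symbols give treatment and time, "(2)" a further clone of the same gene, and the dashed line the background of 9.15. On the left all OA mice lie above 11 and all serum mice below 9, while on the right the groups lie closer, and 1 serum mouse falls among the OA mice for Tgtp.

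The 79 clones higher by more than 2 did not appear only late. They were chosen on the late arrays, where it follows from the choice that OA arrays were above their empty spots (all 11 for 76 clones) and serum arrays mostly not (none for 62 clones). The earlier arrays took no part in the choice. On the 6 serum arrays of the earlier times (1, 1.5 and 3 hours) 61 of the 79 were above the empty spots on no array, whereas in the median clone 96.8% of the 31 earlier OA arrays were. Their median difference was 2.62 at 1 hour, 2.14 at 1.5 hours and 2.84 at 3 hours, against 3.22 at 18 hours and 3.09 at 24 hours. None of the 79 was called for a difference between late and earlier times.

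Other clones of the same genes mostly did not share the difference. Of the 76 genes, 24 had more than 1 clone on the membrane, and for 2 of these, Cklf and A4galt, all clones were above background and higher by more than 2. Both clones of Cep27 were higher by more than 2 as well, by 2.82 in one above background and by less in one not above it. The other 24 clones of these genes had a median difference of 0.11, with 7 called higher and 1 lower, and 11 of the 24 were above background. Ptpn6, a phosphatase of leukocytes, differed by 2.95 in one clone and by 0.07 in the other. Naca, a nascent chain binding protein of the ribosome, differed by 2.90 in one clone and by 0.19 and 0.22 in the others, all of them above background. For Rab11b, a GTPase of recycling endosomes, both clones were higher (2.01 and 1.23), and for Peo1, the mitochondrial DNA helicase, both were too (4.24 and 1.15). In all, among the 280 genes with 2 or more clones above background, the 2 brightest had the same sign in 171 and were both called in the same direction in 42 and in opposite directions in 16. A clone that differs by 2 or more is therefore reported as a clone, and the gene behind it as uncertain unless a second clone moved too. This uncertainty also holds for Soat2, Ube2c, Apoc1 and Cyp2e1 below, which had no other clone on the membrane.

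Rps16, a protein of the small ribosomal subunit, shows how far 1 spot could depart. One of its clones had 13.21, 12.52 and 5.59 in OA mice at 18 hours and 12.85, 12.48 and 13.42 at 24 hours, against 6.67, 6.17 and 6.20 in the 3 serum mice. One OA mouse thus read like serum. Its other clones had 13.66 to 14.27 and 11.32 to 11.98 in OA and 13.90 to 13.92 and 11.15 to 11.45 in serum, differences of -0.02 and 0.46.

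Lower signals in OA mice were smaller in size. Arhgdia, an inhibitor that keeps small GTPases in the cytosol, had 9.55, 9.75 and 9.26 at 18 hours and 9.26, 9.31 and 9.16 at 24 hours in OA mice, against 10.93, 10.95 and 11.44 in serum mice. No OA mouse reached the lowest serum mouse, and the difference was -1.72 ± 0.17 (limma adjusted p = 3.4e-05), 30.4% of the serum level. H2-K1, a classical MHC class I heavy chain, had 8.69 to 9.34 (median 9.14) in OA and 10.43, 10.45 and 11.04 in serum (-1.59 ± 0.16). F11r, the junctional adhesion molecule JAM-A of epithelium and endothelium, had 8.31 to 8.88 (median 8.80) in OA and 10.38, 9.78 and 10.29 in serum (-1.53 ± 0.16), and its second clone was lower as well (-0.76, adjusted p = 0.0021). Eng, Egr2 (-1.38), Tgtp, Tspan5 (-1.87), Cebpg (-1.85), Bcat2 (-1.73), Mfge8 (-1.65), Rpl18 (-1.38) and Dab2ip (-1.37) made up the 12 clones with the lowest differences.

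The differences varied with the place of a spot on the membrane, in both directions. The spotting robot printed 64 blocks, each with 12 print columns. Above background, the median difference was between -0.15 and 0.15 in columns 1 to 11 and -0.52 in column 12, where 5 of 118 clones were called higher and 64 (54.2%) lower. The share called higher was 36.2% in column 1, 16.8% in column 10 and 4.24% in column 12. Grouped by the letter of the block name, the median above background ran from -0.23 (B) to 0.22 (K). CG03 spots at a corner in column 12 differed by -1.13 and -1.21 in the median, and those in column 1 by -0.57. Of the 12 clones with the lowest differences, 6 (Tspan5, Cebpg, Bcat2, Mfge8, Rpl18 and Dab2ip) lay in column 12.

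When block and print position were removed from each array by median polish, CG03 and empty spots could no longer serve as a check, since each fills the same positions in all 64 blocks and is set near 0 by the procedure. Of the 952 clones above background called before, 684 (71.8%) were called in the same direction, 397 higher and 287 lower. Of the 64 lower clones in column 12, 19 were kept, and of the 365 in the other columns, 268. All 79 clones higher by more than 2 were kept. Among the lower ones Arhgdia stood at -1.67, H2-K1 at -1.89, F11r at -1.53, and Eng at -1.13, whereas Tspan5 went to -0.56, Cebpg to -0.70 and Rpl18 to -0.31, which was no longer called.

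**Figure D3:**
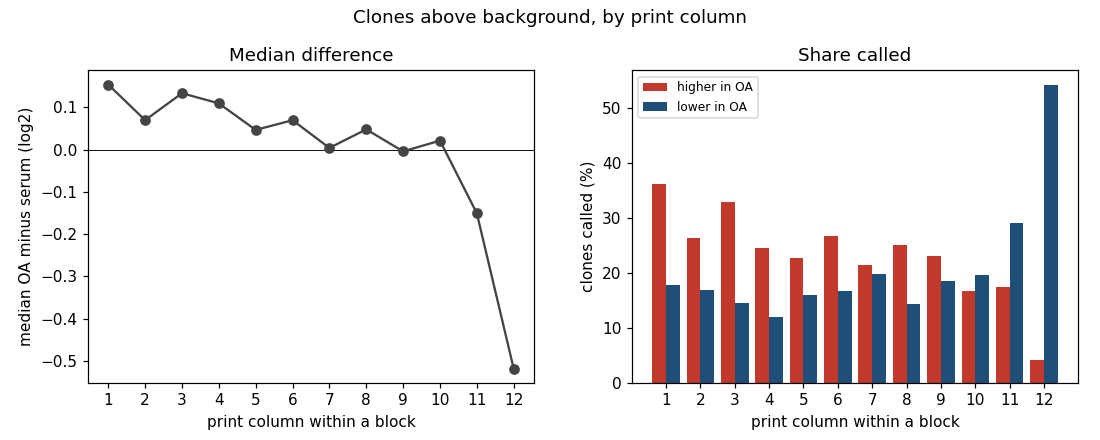
Clones above background by print column within a block: left, median OA minus serum difference (log2); right, share of clones called higher (red) or lower (blue) in OA (%). Column 12 stands apart with a median of -0.52 and 54.2% called lower.

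Most endothelial clones above background were lower in OA lungs. Of 14 clones above background on the endothelium and adhesion list, 9 were called lower (64.3%) and none higher, against 19.6% lower and 23.9% higher of all clones above background, with a median of -0.88 against 0.02. Over all 32 clones of the list, most of them not above background, 11 were lower and 8 higher (median -0.04). None of the 14 lay in print column 12, and with print position removed 10 were called lower (median -0.68). Eng (endoglin), a co-receptor for TGF-beta on endothelial cells, had 8.82 to 9.80 in OA and 10.77, 10.80 and 11.00 in serum with one clone (-1.66 ± 0.20, limma adjusted p = 0.00013), and 9.37 to 9.84 against 10.59, 10.70 and 10.30 with the other (-0.96 ± 0.13). Neither clone overlapped between the groups. Plvap, which forms the diaphragms of endothelial fenestrae and caveolae, was at 39.7% of serum (-1.33), and Icam2, an adhesion molecule constitutively present on endothelium, at 42.8% (-1.22).

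Cldn5, the main claudin of endothelial tight junctions, had 11.97 to 12.30 in OA and 13.28, 12.89 and 12.98 in serum (-0.94 ± 0.12). Gja4, connexin 37 of arterial endothelium, was lower by a difference of -1.04, Ace, the angiotensin-converting enzyme of the capillary surface, by -0.95, Podxl by -0.82 and Esam1 by -0.50. The other 5 clones, of Pecam1, Cdh5, Icam1, Emcn and Car4, were not called. Cdh5, VE-cadherin of adherens junctions, had 12.03 to 12.44 in OA and 12.44, 11.68 and 11.92 in serum, and Pecam1 10.70 to 11.21 against 10.95, 10.74 and 10.70, so that both overlapped. A second Pecam1 clone, not above background, was higher (0.66, adjusted p = 0.0058).

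The sum of the signals of the endothelial list on the linear scale was 17740 to 21520 in OA mice and 27380 to 32450 in serum mice. In whole lung, fewer cells of a type and less RNA per cell cannot be told apart. The difference was not limited to late times, since Eng stood at -2.08, -1.31 and -1.94 at 1, 1.5 and 3 hours and Icam2 at -1.56, -0.84 and -1.25. Scaling moved the level of all clones: with arrays centred on their median the median of all clones above background was -0.31, and with arrays centred on CG03 spots it was 0.98. The endothelial median was then -1.22 and 0.08, which reverses its sign under CG03 centring (5 called higher, 1 lower). Relative to all clones it was -0.91 with quantile normalization and with median centring. CG03 centring shifts all clones of an array by the same value, so it cannot change this relative median. The relative median was -0.72 with print position removed and -0.79 with the calculated spot diameter. With the calculated spot diameter 1 of the 9 lower clones was still called, while the median of the 14 clones was -0.76.

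The sequence upstream of Eng is shown because Eng gave the lowest difference among endothelial genes and the core site of ETS factors, AGGAAG on either strand, is common in endothelial promoters. RefSeq promoters on GRCm38.p6, the 300 bases around the transcription start, were found for 4 of the 8 lower endothelial genes, and 2 of these, Eng and Ace, held the motif, as did 35.4% of all 32851 promoters. A gene counted if any of its promoters held the motif, whereas the 35.4% is over single promoters. The Eng promoter, chr2:32646345-32646644 on the + strand, reads as follows, with the motif in capitals.
Eng: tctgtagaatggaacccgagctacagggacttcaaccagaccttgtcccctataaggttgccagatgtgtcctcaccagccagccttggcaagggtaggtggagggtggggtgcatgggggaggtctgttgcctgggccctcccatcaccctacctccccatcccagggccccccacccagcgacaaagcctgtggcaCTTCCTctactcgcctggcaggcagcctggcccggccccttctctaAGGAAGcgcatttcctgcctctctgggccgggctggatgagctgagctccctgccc

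**Figure D4:**
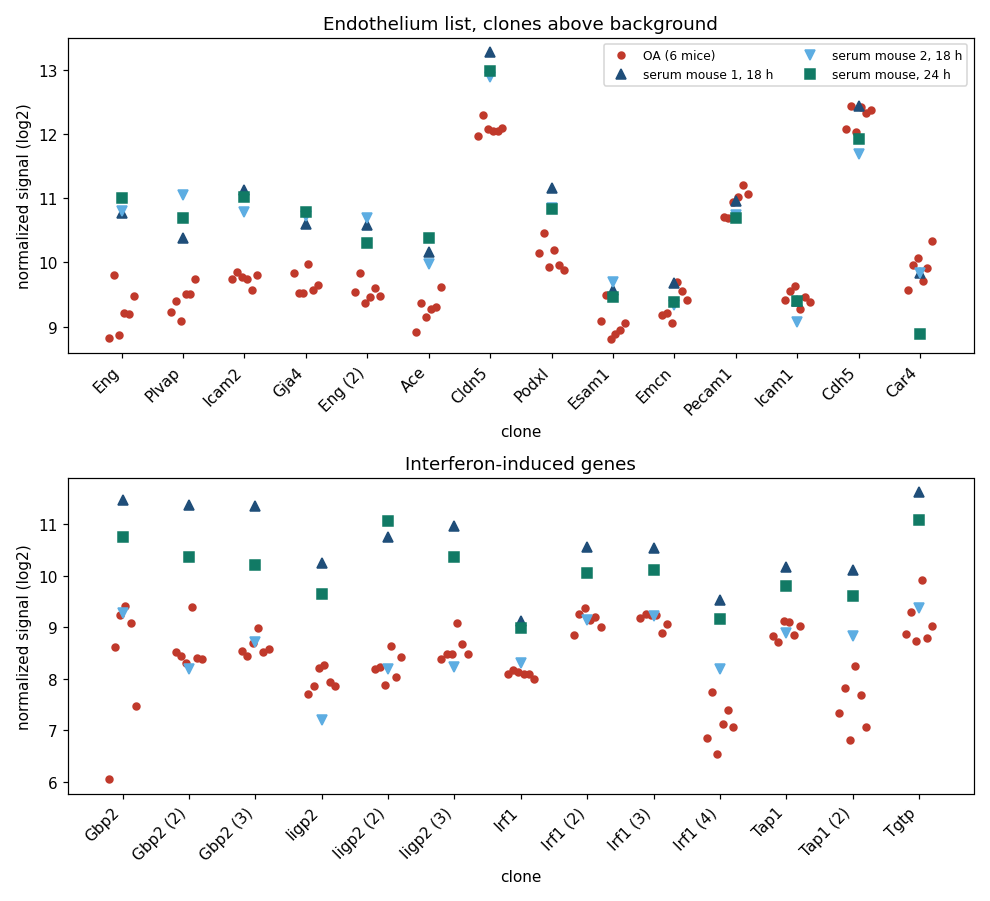
Normalized signal (log2) in each mouse for the 14 clones of the endothelium list above background (top) and for 13 clones of interferon-induced genes, chosen for their pattern (bottom); red circles are the 6 OA mice and the other symbols the 3 serum mice. The endothelial clones from Eng to Podxl have all serum mice above all OA mice, while in the lower panel serum mouse 2 at 18 h lies closest to the OA mice, above all of them for 3 of the 13 clones.

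Many interferon genes were highest in 2 of the 3 serum mice. Of 26 clones above background on the interferon and MHC list, 8 were called lower in OA (H2-K1, Irf3, Irf1 with 2 clones, Psmb10, Tap1, H2-DMa and H2-Q1) and 2 higher (Ifi205 and H2-T23), 30.8% and 7.69%, against 19.6% lower and 23.9% higher of all clones above background. The median was -0.33, which became -0.78 with arrays centred on their median (18 lower, 2 higher) and turned to 0.63 with centring on CG03 (13 higher, 1 lower). Irf1, a transcription factor induced by interferon gamma, had 10.54, 9.22 and 10.10 in the serum mice (2 at 18 hours, then 24 hours) and 8.88 to 9.25 in OA mice with one clone. Serum mouse 2 at 18 hours lay among the OA mice and the other serum mice lay above them. Tgtp (now Tgtp1), a GTPase induced by interferon gamma that is not on the list but was among the 12 lowest clones, had 11.61, 9.37 and 11.09 in serum and 8.72 to 9.91 in OA. Its difference was -1.65 ± 0.42 (limma adjusted p = 0.0093).

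Clones not above background over the 9 mice showed the same order. Gbp2, a guanylate-binding protein, had 11.34, 8.71 and 10.20 in serum and 8.44 to 8.98 in OA with one of 3 clones, and Iigp2 (now Irgm2), an immunity-related GTPase, 10.75, 8.19 and 11.05 against 7.88 to 8.63. Over the whole list, 29 of 72 clones (40.3%) had serum mouse 1 at 18 hours and the serum mouse at 24 hours above the other 7 mice, against 689 of all 7625 clones (9.04%). This count was made after the values were seen and has no test. In 20 of the 29, serum mouse 2 at 18 hours was not above all OA mice, and in the other 9, among them clones of Irf1, Irf8, Tap1, Psmb10 and H2-DMa, it was.

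Of the 8 clones called lower above background, 5 (H2-K1, Irf3, Psmb10, H2-DMa and H2-Q1) had all serum mice above all OA mice, and 3 (Irf1 with 2 clones and Tap1) did not. These 3 and Tgtp lost their calls without the serum mouse at 24 hours. Without serum mouse 1 at 18 hours the list had 4 clones called higher and 5 lower, and without serum mouse 2 it had 2 and 12. The 29 clones had a median difference of -0.71 late, where a lower value in OA follows largely from the choice. At 1, 1.5 and 3 hours, which took no part in the choice, the median was -0.24, -0.22 and -0.29. The range was wide at each earlier time (-1.81 to 0.60, -1.02 to 0.27 and -1.86 to 0.48). A smaller size outside the times of the choice is expected, so no change with time is read from these medians. The Irf1 clone given above stood at -0.22, -0.12 and -0.17 at those times, another Irf1 clone, not above background, at -1.02, -0.66 and -0.81, and Tgtp at -0.52, -0.39 and -0.55. H2-K1 differed by -1.72, -1.75 and -1.37 at those times and had all serum mice above all OA mice.

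Promoters of these genes are shown for the sites of the factors that answer interferon, TTCNNNGAA (the gamma-activated site) and the interferon-stimulated response element (a pair of GAAA runs in 1 direction separated by NN, bound by the ISGF3 complex and IRFs), searched on both strands. Among the 18 genes of the 29 clones, 14 had a RefSeq promoter, of which 3 held the first motif and 3 the second, against 8.3% and 3.44% of all 32851 promoters. A gene counted if any of its promoters held the motif, whereas these shares are over single promoters, so the units differ. The Tgtp1 promoter, chr11:48992197-48992496 on the - strand, held both next to each other, and the upstream of 2 Irf1 starts, chr11:53769764-53770063 on the + strand, held the first. Motifs are in capitals, and a match describes the letters only.
Tgtp1: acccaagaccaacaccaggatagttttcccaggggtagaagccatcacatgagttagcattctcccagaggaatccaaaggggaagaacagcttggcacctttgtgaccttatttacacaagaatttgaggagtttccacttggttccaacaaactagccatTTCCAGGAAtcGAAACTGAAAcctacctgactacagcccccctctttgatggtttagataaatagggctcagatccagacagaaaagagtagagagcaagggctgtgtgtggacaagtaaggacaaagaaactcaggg
Irf1: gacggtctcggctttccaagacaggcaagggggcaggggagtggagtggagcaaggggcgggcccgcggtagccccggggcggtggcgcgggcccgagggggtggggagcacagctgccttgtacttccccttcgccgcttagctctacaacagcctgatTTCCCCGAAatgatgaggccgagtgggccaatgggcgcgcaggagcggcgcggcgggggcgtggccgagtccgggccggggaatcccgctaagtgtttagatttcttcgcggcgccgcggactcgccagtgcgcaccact

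Genes of fatty acid use were called in both directions. Fatty acids reach beta-oxidation in mitochondria through acyl-CoA synthetases and the carnitine shuttle, and PPAR-alpha is the nuclear receptor that answers to them. Of 18 clones above background on the oxidation, lipolysis and PPAR list, 6 were called higher and 6 lower (33.3% each, median 0.04), against 23.9% and 19.6% of all clones above background, and 3 and 4 with print position removed. Hadha, the alpha subunit of the mitochondrial trifunctional protein, had 9.20 to 10.02 (median 9.64) in OA and 10.78, 10.78 and 11.15 in serum (-1.34 ± 0.14), without overlap, and kept its call with print position removed (-1.19). Pnpla2, the triglyceride lipase ATGL, was lower (-1.06) and so was its inhibitor G0s2 (-0.38). Dci (now Eci1), which isomerizes unsaturated acyl-CoA such as that of oleate, had 9.53 to 9.85 in OA and 8.65, 8.61 and 8.60 in serum (1.14 ± 0.10, at least 1.31-fold since serum was not above background).

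Acsl4, an acyl-CoA synthetase, was higher by 1.06, and Ppara itself had 10.94 to 11.73 in OA and 10.75, 10.89 and 10.71 in serum (0.62 ± 0.17, limma adjusted p = 0.012). Acaa2, Elovl5 and Slc25a20 were called higher and Adfp (now Plin2) lower, but none of these was called with print position removed. Fasn, fatty acid synthase, was lower with both clones, the dimmer of which was not above background (-1.62, print column 12). The brighter had 9.08 to 9.88 in OA and 10.69, 10.51 and 11.03 in serum (-1.34 ± 0.20), and kept its value with print position removed (-1.33).

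The study listed lipid genes of its late cluster from the OA mice themselves, so their direction is not independent evidence. Of 13 clones of that list above background, 7 were called higher (53.8%, against 23.9% of all clones above background) and 1 lower (7.69%, against 19.6%; median 0.44, and 0.21 with arrays centred on their median). A4galt, the synthase of globotriaosylceramide, had 12.14 to 12.50 (median 12.38) in OA and 8.21, 8.57 and 8.49 in serum with its brighter clone (3.91 ± 0.12, at least 8.03-fold), and the other clone differed by 3.56. Soat2, which esterifies cholesterol, had 10.12 to 10.50 in OA and 6.96, 7.20 and 7.24 in serum (3.16 ± 0.13, at least 1.93-fold). No serum array was above its empty spots for either gene. Serinc1 (1.28), Ppara, Acaa2 and Prei4 (now Gpcpd1, 0.44) were also higher and Il4ra, a receptor chain for interleukin 4 and 13, lower (-0.55). All of the large ones were higher at 1 hour already (A4galt 3.40, Soat2 3.29, Serinc1 1.49).

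In the cholesterol list, 2 of 8 clones above background were higher and 2 lower, close to the 23.9% and 19.6% of all clones above background. Nr1h2, the sterol receptor LXR-beta, was lower (-0.85 ± 0.11) in OA mice. Lrp1, at -0.29, lost its call without any one of 7 of the 9 mice.

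Of 13 surfactant and alveolar clones above background, 3 were called higher (23.1%) and 4 lower (30.8%), with a median of 0.03, against 23.9% and 19.6% of all clones above background. Sftpd, the collectin surfactant protein D, had 13.31 to 13.72 in OA and 14.07, 14.18 and 13.99 in serum (-0.63 ± 0.12), 64.5% of serum. Slc34a2, the phosphate transporter of type II cells, had 12.15 to 12.73 in OA and 12.06, 11.63 and 11.49 in serum (0.62 ± 0.18), but stood at -0.11 with arrays centred on their median. Napsa (0.43) and 1 of 2 Ctsh clones (0.68), proteases that process surfactant proteins, were higher, and Pcyt1a (-0.59) and 1 of 2 Aytl2 clones (now Lpcat1, -0.55, the other 0.19), enzymes of phosphatidylcholine synthesis, lower, and these calls were lost with print position removed. Smad7, an inhibitor of TGF-beta signalling that the study discusses, was not above background, with 5.34 to 6.14 in OA and 6.34, 6.59 and 6.08 in serum.

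Of 12 chemokine, interleukin and TNF clones above background, 5 were called (41.7%, against 43.5% of all clones above background), all of them higher, and over all 57 clones of the list 16 were higher and 5 lower. Besides Cklf these were Il16, a chemoattractant for CD4+ cells (1.09 ± 0.13, with 0.01 in a clone not above background), Ccl24, an eosinophil chemokine (0.63), and Cxcl15, lungkine of airway epithelium (0.59), the last not called with print position removed. Of 5 neutrophil clones above background, 2 were lower (40%), against 19.6% lower and 23.9% higher of all clones above background. Ncf4, a subunit of the phagocyte oxidase, had a difference of -0.63, and Lcn2, lipocalin 2, had -1.01 but lay in print column 12 and stood at 0.23 with print position removed. Macrophage markers had 1 of 3 clones higher (Csf1r, 0.55), T cell markers 1 of 2 (Cd6, 0.47), and the B cell and immunoglobulin list 1 of 2 lower (Igh-6, the IgM heavy chain, -0.52). These marker lists had few clones above background, out of 17 neutrophil, 32 macrophage, 33 T cell and 30 B cell clones. Over all clones of these lists, those called higher and lower were 4 and 3 for neutrophils and 11 and 9 for macrophages. They were 9 and 1 for T cells and 7 and 7 for B cells, against 25.2% and 20.7% of all 7625 clones.

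Hemoglobin chains, markers of blood in the tissue, were called lower in OA with 3 clones (Hbb-b1 -0.54, Hba-a1 -0.52 and -0.41), all in print column 12, and stood at -0.04, 0.04 and 0.31 with print position removed. The other hemoglobin clones of these genes were not called. Spot signals had a cap of 21815, reached per array by 12, 11 and 3 spots in the serum mice and by 0 to 4 in the OA mice. Whether hemoglobin clones were among them was not tested, and a cap can hide differences of the brightest spots. The red cell list had 1 clone higher (5.88%) and 5 lower (29.4%) of 17, against 23.9% and 19.6% of all clones above background. With print position removed it had 2 higher and 1 lower (median 0.04). Its summed signal, which includes the 3 clones in print column 12 and was not corrected for position, was 220700 to 250800 in OA and 250900 to 253000 in serum.

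Other groups held single clones of larger size. In the cell cycle list, 5 of 19 clones above background were higher (26.3%) and 4 lower (21.1%), near the 23.9% and 19.6% of all clones above background. Ube2c, a ubiquitin-conjugating enzyme of the anaphase-promoting complex, had 11.25 to 11.55 in OA and 7.82, 8.04 and 8.05 in serum (3.40 ± 0.11), and Ccna2, cyclin A2, was higher by 1.37, and Mki67 by 0.41, whereas Ccnd3, cyclin D3, was lower with 2 of its 3 clones above background (-1.04 and -0.99, the other -0.39). In the matrix list 2 of 30 were higher (6.67%) and 8 lower (26.7%). Sparcl1, a matricellular protein, differed by 2.13 in one clone and 0.15 in a dimmer one, and Timp2 (-0.67) and both Bgn clones (-0.52 and -0.47) were lower. Dcn was lower in one clone (-0.81) and at -0.01 in another, and Col4a1 at -0.52 and 0.19.

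In the stress list 4 of 18 were higher and 2 lower, a smaller share called (33.3%) than the 43.5% of all clones above background. Klf9 (0.98) and 1 of 3 Errfi1 clones (0.93), both targets of the glucocorticoid receptor, were higher. Atf4 (-1.29) and 1 of 3 Fkbp4 clones (-0.86), both in column 12, were lower, and both kept their calls with print position removed. Of 29 antioxidant clones, 6 were higher and 2 lower (27.6% called). Mgst1 (0.56), Prdx1 (0.53) and Keap1 (0.54) were higher and Txn2 lower (-0.81), each also with print position removed, although a dimmer Keap1 clone was lower (-0.81), and Gpx3 (-1.19) lost its call then. Ribosomal proteins had 25 of 97 clones higher (25.8%, against 23.9% of all clones above background) and 5 lower (5.15%, against 19.6%; median 0.20), a direction that turned to 2 higher and 65 lower with arrays centred on their median (median -0.51) and became 10 and 7 without the serum mouse at 24 hours. The airway epithelium list had 2 of 8 clones higher and 1 lower, the circadian list 1 of 8 higher and 4 lower, the respiratory chain 9 and 8 of 67, the proteasome 4 and 6 of 31, and the heat shock proteins and chaperones 8 and 3 of 42.

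The next question was whether 18 and 24 hours gave the same result. At 18 hours 2554 of 7625 clones were called (33.5%) and at 24 hours 2090 (27.4%). Above background these were 683 and 630, and 428 were called at both times in the same direction, 62.7% of the calls at 18 hours and 67.9% of those at 24 hours. The 18 and 24 hour differences of the clones above background correlated with Pearson's r = 0.863 across clones, which are not independent replicates, and 77.4% had the same sign. The same measures were 0.684 and 73.2% over empty spots and 0.733 and 90.1% over CG03 spots, which hold no lung transcript. Part of the likeness between the times was therefore also present in spots without mouse cDNA.

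**Figure D5:**
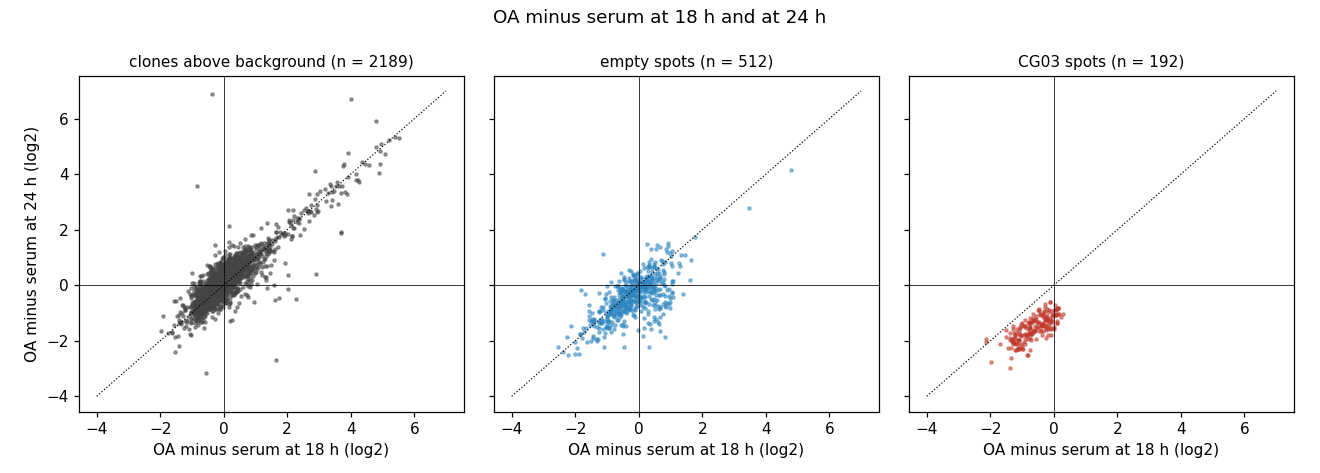
OA minus serum difference (log2) at 18 h (x axis) and at 24 h (y axis) for clones above background, empty spots and CG03 spots; the dotted line marks equal values. Clones spread along the line (Pearson's r = 0.863), empty spots do so less (0.684), and CG03 spots lie below 0 at 24 h.

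A difference between 24 and 18 hours was called for 9 of 7625 clones (0.118%), and for 691 at an unadjusted p below 0.05 (9.06%). Above background these were Arbp and Hpxn. Arbp (now Rplp0), a ribosomal stalk protein, differed by 7.26 between the times, which rested on 1 spot. Its signal was 12.76 to 13.21 in OA mice and 12.97 and 13.73 in serum mice at 18 hours, and 6.27 in the serum mouse at 24 hours. The other Arbp clone read 11.73 in that mouse. Without it the OA minus serum difference of Arbp was -0.36.

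Hpxn (now Hpx), hemopexin, a plasma protein made by the liver that binds heme, had 9.39, 9.42 and 9.19 in OA mice and 7.47 and 7.95 in serum mice at 18 hours. At 24 hours it had 10.37, 10.56 and 10.41 in OA mice and 10.99 in the serum mouse. OA was above serum at 18 hours, by 1.62 (difference between times -2.17, limma). At 24 hours OA stood at -0.54, which was not called and rests on the only serum mouse of that time. Every mouse at 24 hours was above every mouse at 18 hours.

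Other plasma protein genes followed Hpxn. Alb1, albumin, had 10.88, 11.44 and 12.16 in OA mice and 8.72 and 8.42 in serum mice at 18 hours, then 13.22, 13.47 and 12.94 in OA mice and 12.82 in the serum mouse at 24 hours. Its OA minus serum difference was 2.92 at 18 hours (limma adjusted p = 0.00032) and 0.39 at 24 hours (adjusted p = 0.51). Apoe had 11.57 to 11.88 in OA and 11.62 and 11.69 in serum at 18 hours, and 12.53 to 12.80 and 12.74 at 24 hours. Of the 27 clones on the acute phase and plasma protein list, 11 (40.7%) had all 4 mice at 24 hours above all 5 at 18 hours, against 101 of all 7625 clones (1.32%). This pattern was looked for after the values were seen and has no test.

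The 11 were clones of Alb1, Hpxn, Apoe, Trf, Fga, Apoh, F2, Hrg, Mbl2, Serpinc1 and Apoa5, of which 4 were above background. Gnmt (8.87 to 9.74 at 18 hours, 10.60 to 11.12 at 24 hours), an enzyme abundant in liver, showed it too and was chosen after its values were seen. All these genes are best known from liver. Whether RNA of another tissue was in the lungs taken at 24 hours was not tested. Apoc1 (3.01 ± 0.33) and Cyp2e1 (3.00 ± 0.32), also abundant in liver, were higher in OA at both times. Apoc1 had 11.19 to 12.21 in OA, 7.83 and 8.08 in serum at 18 hours, and 9.99 in serum at 24 hours.

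Late and earlier differences were also compared. A difference between late (18 and 24 hours) and earlier (1, 1.5 and 3 hours) OA minus serum values was called for 4 of 7625 clones (0.0525%), none above background, and 603 had an unadjusted p below 0.05 (7.91%), of which 138 were above background. The late and earlier differences, which share no mouse, correlated with Pearson's r = 0.93 across the 2189 clones above background, all normalized together, and 84.8% had the same sign. Of the 49 clones called lower by more than 1, 36, 25 and 32 were below -1 at 1, 1.5 and 3 hours as well.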

How the data were processed

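Total RNA of whole mouse lungs had been labelled with 33P and hybridized to nylon cDNA membranes, and the images were quantified with Bzscan2. The authors deposited spot intensities on a linear scale for each array, of which the image signal at constant diameter was used, and a table of quantile-normalized log2 values for the whole series, which served as an alternative. Columns of other samples not used numbered 0. The hybridization of each membrane with a vector probe, which measures the amount of spotted cDNA, was not used here. The genome build and the sequences of the clones are not given in the sources used here, and clones were named by the symbols of the array files.

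Intensities were set to at least 1, log2 transformed and quantile-normalized over all 60 arrays, and arrays of a mouse were averaged. OA and serum were compared by limma 3.58.1 (R 4.3.3, jsonlite 2.0.0) with time as a block, and in a fit with 1 mean per treatment and time for 18 h, 24 h and their difference. The spread of the single serum mouse at 24 h was assumed to equal that of the other groups. P-values were adjusted by Benjamini-Hochberg over the 7625 clones at a false discovery rate of 5%. Array brightness was compared by exact permutation within time. A fold of "at least" was computed where no serum array exceeded the 95th percentile of its empty spots, with that percentile in place of the serum level. The number of arrays limits the precision. The labels do not say that the serum arrays at 18 h came from separate animals, which the number of mice in the methods requires; p-values measure the spread between these samples.

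Clones were named by rule: the 12 largest differences in each direction among called clones above background whose groups did not overlap within both times, those called between 18 and 24 h, and the called members of each gene list with up to 2 uncalled ones. For the listed alternatives, at most the 4 called members of a list with the largest difference were followed, and all for endothelium and interferon. A few named clones are not reported here. The members and lists were chosen with earlier results of these data known. On simulated data of 7625 clones, 89 of 100 clones changed by 1 on the log2 scale were recovered. Of 100 changed by 0.5, 37 were recovered, and 13 unchanged clones were called. The simulated noise was independent between clones and held no shift like that of the empty and CG03 spots. It therefore does not show how many calls are false on these arrays. The alternatives were other scalings, signals, offsets and filters, the deposited table, leaving out each mouse, single times, and removal of print position by a median polish over the 64 blocks and the positions within a block.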

Additional observations from a re-analysis of the deposited data

Results flagged for a closer look

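Among 35 groups of 6 OA mice tested for a sample far from the others, 1 had one, and chance gives about 1 in 20. For Cebpg, mouse P7L1 stood at 9.87 against 9.07 to 9.27 in the other OA mice (gap over range 0.754).

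The OA minus serum difference changed between 18 and 24 hours, by limma's test of the difference itself, for Arbp by 7.26 and for Hpxn by -2.17. Both rest on the only serum mouse at 24 hours.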

How the results depend on the processing

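Of 112 named clones, 30 kept direction and call under the alternatives run on single clones other than leaving out a mouse (CG03 centring was run on counts and lists only), and all 112 did so with an offset of 50 or with quantile normalization over the late arrays alone. With arrays centred on their median, 283 clones above background were called higher and 973 lower, 1083 were called at 18 h, and Slc34a2 (-0.11), the brighter Aldh1a1 clone (-0.12) and Col3a1 (-0.056) turned. With the fitted signal, 279 clones above background were lower, 409 were called at 18 h, 395 at 24 h and 40 for the difference of times, and Smad7 (0.064) and Hba-a1 (0.0081 and 4.06) turned. With the calculated diameter, 279 clones were called (210 higher, 69 lower), of which 151 above background (125 and 26), 74 of the named clones lost their call, and Hba-a1 (2.52) and Psma3 (-0.145) turned. The deposited series table turned Hba-a1 (0.89 and 2.61) and Tef (0.029), but its OA columns follow the signal at constant diameter (rank correlation across spots 1 on each array) and its serum columns, 1 per time, come closer to the fit over a calculated diameter (0.994 and 0.980, against 0.938 and 0.834), so its differences mix signals. At 24 h alone 2090 clones were called (783 lower), of which 630 above background (198 lower), and Hpxn stood at -0.54; at 18 h alone, or without the serum mouse at 24 h, Arbp stood at -0.36 (up to 3.46 without another mouse, serum mouse 2 at 18 h). Print position removal and CG03 centring were chosen after seeing the data. The former gave 16 clones called for the difference of times and, by construction, since CG03 fills whole print positions, 8.33% of CG03 spots called, and turned Lcn2 (0.23), Hba-a1 (0.045 and 0.31) and Ndufb10 (0.0051). The latter called 5938 clones (5912 higher, 26 lower), 1722 of them above background (1714 and 8). With the 99th percentile of empty spots 836 clones were above background. Leaving out each mouse gave 2554 to 3422 clones called (1388 to 1883 higher, 1166 to 1539 lower) and 683 to 942 above background (360 to 529 higher, 323 to 413 lower), fewest without the serum mouse at 24 h. It gave 419 to 640 called at 18 h, fewest without serum mouse 2, 448 to 704 at 24 h, 8 to 26 for their difference, 74.5% to 78.2% of one sign, and correlations of 0.84 to 0.87. Without 1 mouse, 25 of the 112 named clones lost their call for at least 1 mouse, 20 of them without the serum mouse at 24 h. The cause of these changes was not tested. No paired analysis was possible because the labels give OA and serum mice no common numbers. Clones not above the empty spots in serum have only a bound on their fold.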
